A study of Homo sapiens with 3 samples.

Results

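The transcripts described here end their coding sequence (CDS) in the stop codon UAA followed by a purine, A or G. They were chosen from sequence and depth alone, as transcripts that every library lists, that pass a minimum of CDS reads averaged over the libraries (the lowest kept had 128.3), and whose 3′UTR holds at least 1 stop codon in the reading frame. The stretch from the normal termination codon (NTC) to the first of these (the 3′TC) had to span 18 nt or more. Of 5438 transcripts that met these minimums, 1032 ended in UAA and a purine, 635 in UAAA and 397 in UAAG. HEK293T cells, derived from human embryonic kidney and expressing SV40 large T antigen, gave 2 libraries without treatment, Untreated A and Untreated B, and 1 library, G418 A, from cells given 500 µg/mL of the aminoglycoside G418 for 24 hours. The protocols state that lysis was done with cycloheximide, which holds ribosomes in place. With 1 G418 library, differences between conditions have no replicate check on the drug side.

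A stop codon is recognised in the ribosomal A site by release factor eRF1, which recruits the GTPase eRF3 and triggers release of the finished protein. Now and then a near-cognate tRNA is accepted instead and the ribosome reads on into the 3′UTR until the next stop codon in frame. Of the stop codons UAA is generally held to be the tightest, and the nucleotide after it, which eRF1 also contacts, modulates how often it fails. Aminoglycosides such as G418 bind the decoding centre and make the acceptance of near-cognate tRNAs more likely.

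Ribosome profiling counts the mRNA fragments protected by ribosomes. The ribosome readthrough score (RRTS) is the density of these reads from NTC to 3′TC, without the first 6 nt, over the density in the CDS. It is given here in percent. The region lengths include the 3′TC codon, so reads of ribosomes stopping there may be part of RRTS. The study saw ribosomes enriched at this codon under G418. Where 3 values follow each other they belong to Untreated A, Untreated B and G418 A in that order. Pooled RRTS is the sum of the readthrough reads over a class divided by the reads expected there if every transcript kept its CDS density. Reads are called readthrough reads here by their position alone. The study found no reading frame kept among untreated 3′UTR reads, while under G418 the frame of the CDS was kept. Untreated readthrough reads therefore need not come from readthrough, and their frame in these classes was not tested.

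The stop contexts of the extremes are given first, because they show what the value of a single stop signal looks like in sequence. Each is 15 nt of CDS, the stop codon with the base after it in capitals, and the next bases of the 3′UTR, from GENCODE version 44 on hg38. These are the 8 transcripts with the highest RRTS under the drug that had 20 readthrough reads or more.
NPTN, chr15:73561898-73561927, minus strand: cagagaaacacaaatTAAGtactgcttaca
CCDC59, chr12:82353139-82353168, minus strand: atacaagaaaaatgtTAAAcattttgttcc
SRSF8, chr11:95068058-95068087, plus strand: ggacagatgtcctctTAAGaaaatgatgca
TRA2B, chr3:185917703-185918371, minus strand: tcacctcgtcgctatTAAAgcatgaagact
STX17, chr9:99968656-99968685, plus strand: gacaagaaatgcagtTAAAaaccaaatttc
KNOP1, chr16:19706898-19706927, minus strand: gtcaagctggaagatTAAActctagagttt
ARF4, chr3:57572200-57572229, minus strand: gagctttcaaaacgtTAAAtgaaattggat
DDX52, chr17:37614284-37614313, minus strand: cttgaagacaaaagtTAAAaacagacttta
All 8 have a T (U in the mRNA) just before the stop codon, a base found there in 27.3% of the UAA-purine transcripts. The 8 were chosen by their G418 values, so this is a description only. Their stop codons lie in the last exon except in NPTN, where it is in exon 8 of 9, and the window of TRA2B spans an intron. The next set holds the lowest RRTS under the drug where 200 readthrough reads or more would be expected at CDS density. DEGS1 and MGST3 belong to it and are named only.
RPL31, chr2:101019021-101019050, plus strand: gtcgccaagagcccaTAAAgggagccctcc
SRSF1, chr17:58005007-58005036, minus strand: tctgaagagatggatTAAGaatgctttgga
BCAP31, chrX:153700925-153700954, minus strand: gacaagaaggaagagTAAGggcctccttcc
TARDBP, chr1:11023231-11023260, plus strand: ttgaaagtagtgctgTAAAtattctgccat
RPL23A, chr17:28723638-28723893, plus strand: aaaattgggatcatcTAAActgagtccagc
SNU13, chr22:41674921-41674950, minus strand: gaaaggctcttagtcTAAAcctgtggcctc
Only SRSF1 among these 6 has a T just before the stop codon. The window of RPL23A spans an intron. The last set holds the 6 highest untreated values among transcripts with at least 5 readthrough reads in each untreated library.
DESI2, chr1:244705772-244705801, plus strand: cgccacactaaactaTAAAtgtctccaaag
SZRD1, chr1:16395123-16395152, plus strand: ttcaaacagcgcagaTAAAtgcaggcaaga
NDUFB1, chr14:92116181-92116210, minus strand: gaagttacctggaagTAAAgactggctaga
RBBP7, chrX:16845023-16845052, minus strand: gagggacaaggatctTAAAcccaaagtacg
TOMM7, chr7:22813085-22813114, minus strand: gtgctctggctcggaTAAGagatgggacat
HNRNPA3, chr2:177219282-177219311, plus strand: ggtagcagaaggttcTAAAaacagcagaaa
Of these 6, RBBP7 alone has a T before the stop codon. The bases of the stop signal itself are shared by all 3 sets, UAAA in most and UAAG in NPTN, SRSF8, SRSF1, BCAP31 and TOMM7.

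The depth behind the RPM scale was 5857230, 9477972 and 7216039 reads, and the 1032 transcripts held 22.2%, 21.6% and 21.4% of the CDS reads. Of 5 markers of this line, VIM and KRT8 were densely covered, with VIM at 2151, 2163 and 1710 RPKM. KRT18 had 197, 262 and 191 RPKM and NEFM 14.9, 21.3 and 12.5, while PAX2 was listed only in Untreated B, at 1.28 RPKM. Of 7 markers of other cell types, EPCAM was listed in every library at 302, 270.1 and 346 RPKM, above KRT18 in each. HBA1 was listed in 2 libraries near 1 RPKM, and HBB, PTPRC, CD3E, ALB and CDH5 in none.

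Untreated, ribosomes were found past UAA-purine stop codons at a pooled RRTS of 1.16% in Untreated A (95% interval 1.08 to 1.25, 763 reads) and 1.04% in Untreated B (0.977 to 1.10, 1154 reads). In G418 A the pooled RRTS was 9.97% (9.76 to 10.2, 7968 reads). The G418 library stood 9.07 times above the untreated mean of 1.10% ± 0.0901 (SD, n = 2), while the untreated libraries differed by 1.12 times. With every transcript weighted equally, the mean RRTS in G418 A was 17.8% and the fold 5.81. Over all 5438 transcripts pooled RRTS was 1.61%, 1.27% and 21.8%, a fold of 15.1.

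**Figure D1:**
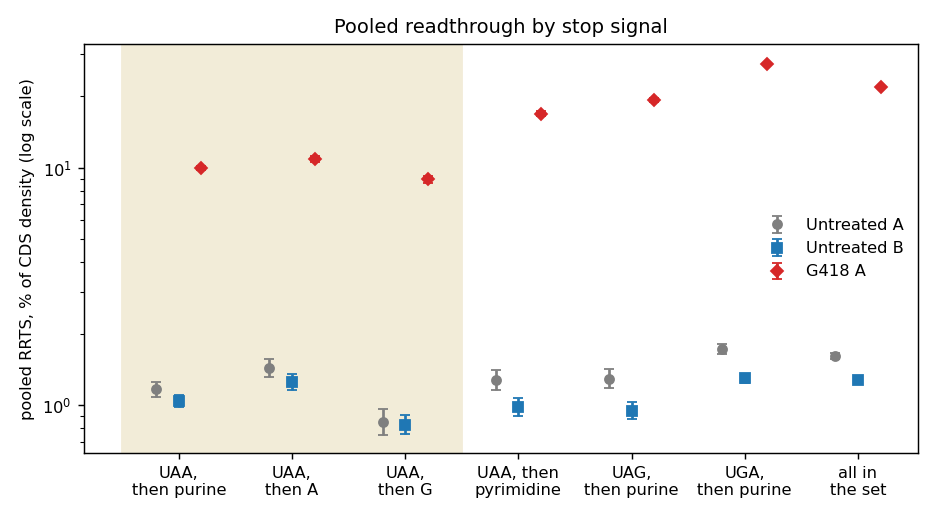
Pooled RRTS in percent of CDS density (log scale) by stop signal and library, with exact Poisson 95% intervals for counting error. In G418 A the shaded UAA-purine classes sit at 9.97%, 10.8% (UAAA) and 8.94% (UAAG), below the 16.9% of UAA-pyrimidine and 27.4% of UGA-purine, while the untreated libraries of the classes drawn lie between 0.827% and 1.72%.

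Set beside the other classes, the UAA-purine stop codons had the lowest pooled RRTS of the 4 classes in the drug-treated library, while their place in the untreated libraries varied. UAA followed by a pyrimidine (612 transcripts) had a pooled RRTS of 1.27%, 0.984% and 16.9%, so that the ratio of the purine class to it was 0.914, 1.05 and 0.591. Against UAG followed by a purine (662 transcripts) the ratio was 0.900, 1.09 and 0.518. Against UGA followed by a purine (1758 transcripts) it was 0.675, 0.800 and 0.364, below 1 in 3 of 3 libraries. An exact sign-flip permutation test over the 3 libraries, two-sided, gave p = 0.50, 0.50 and 0.25 for these ratios, and adjusted p = 0.50 for each over 4 ratios. The smallest p it can give is 0.25. Whether the drug changes the ratio to UAA-pyrimidine could not pass a threshold either, since permuting 1 G418 label over 3 libraries gave p = 0.33 (exact, the smallest possible). Leaving out the 1% of transcripts of each class with the most readthrough reads moved the untreated ratios, and turned the mean log2 ratio to UAA-pyrimidine over the 3 libraries from −0.27 to 0.094, but the ratio in G418 A stayed below 1, at 0.696. The UAA-pyrimidine class was itself uneven in G418 A, with a pooled RRTS of 20.2% for UAAC and 13.0% for UAAU. UAAA over UAAU was 1.04, 1.38 and 0.835, and UAAG over UAAU 0.619, 0.914 and 0.690. Among transcripts with at least 30 expected reads, median RRTS in G418 A was 18.5% for UAAC, 10.5% for UAAU, 9.70% for UAAA and 8.62% for UAAG.

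The single transcripts show the same order in G418 A. Median RRTS of the 1032 transcripts was 0 in both untreated libraries and 6.996% in G418 A, where the upper quartile was 20.4%. The medians in G418 A were 15.02% for UAA-pyrimidine, 15.4% for UAG-purine and 24.2% for UGA-purine. The share of transcripts with at least 1 readthrough read was 22.6% (20.1 to 25.2, Wilson 95% interval), 23.4% (21.0 to 26.1) and 64.1% (61.1 to 66.9) in the 3 libraries in turn. Of the 1032, 318 (30.8%) had no readthrough read in any library, against 21.0% of the 5438. Most transcripts are too shallow for a value of their own, since the median number of readthrough reads expected at CDS density was 18.7 in G418 A. Among the 397 transcripts with a mean of at least 30 expected reads, 91.4% had a readthrough read in G418 A and the median RRTS was 8.92%, against 14.9% in 211 UAA-pyrimidine, 16.8% in 262 UAG-purine and 24.9% in 693 UGA-purine transcripts. With at least 200 expected reads, 67 of 69 UAA-purine transcripts had a readthrough read in G418 A, so that a low RRTS there was a low level and rarely an absence.

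**Figure D2:**
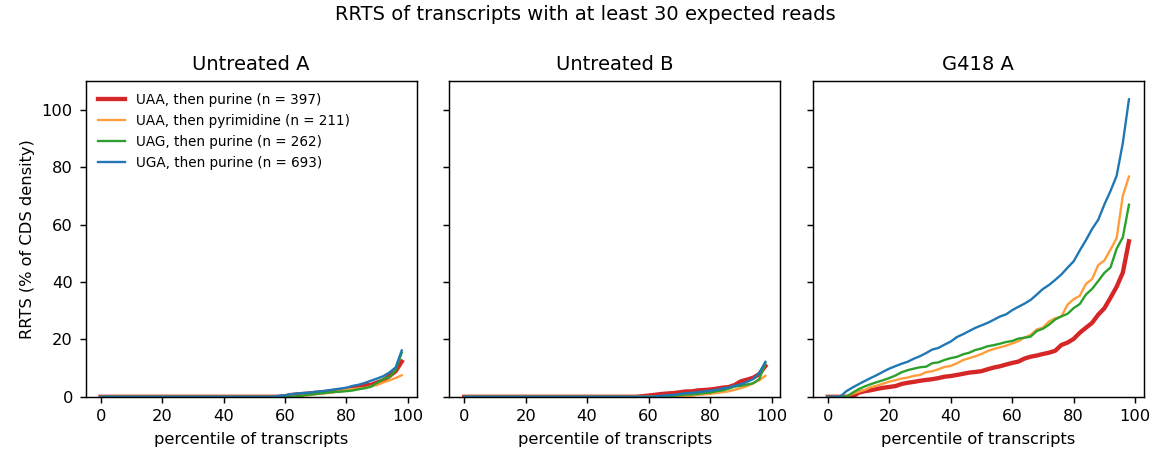
RRTS in percent of CDS density at each percentile of transcripts (to the 98th) for 4 stop signals, among transcripts with at least 30 expected reads, by library. In G418 A the UAA-purine curve lies lowest over most of its course, with a median of 8.92%, and in both untreated libraries the 4 curves run together at or near 0 over the lower part.

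RRTS was above both untreated libraries in 608 of the 1032 transcripts (58.9%), against 72.0% of all 5438. In 6 (0.581%) it was below both, against 0.515%. In the 397 deeper transcripts 337 (84.9%) were above both, against 91.7% of 1992. Readthrough in single transcripts was only partly shared by the untreated libraries. Of 350 transcripts with a read in either, 125 had one in both, and over these 125 the log2 RRTS values correlated at r = 0.74 (Spearman 0.68), as a description of transcripts that share annotation and length.

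UAAA and UAAG differed less clearly. Pooled RRTS of UAAA was 1.44%, 1.25% and 10.8%, and of UAAG 0.850%, 0.827% and 8.94%, a UAAG over UAAA ratio of 0.592, 0.661 and 0.826 (exact sign-flip test, two-sided, p = 0.25, adjusted p = 0.50). A pair of near-identical histone H3 genes, HIST2H3A and HIST2H3C, both UAAG, weighed on this value. Together they held 13.98% of the readthrough reads expected over the 1032 transcripts in G418 A and 4.32% of those found. Without them the ratio in G418 A was 1.07, and pooled RRTS of the whole class there was 11.1%. Among transcripts with at least 200 expected reads, UAAA stood at 7.04% and UAAG at 7.12% in G418 A. The median RRTS in G418 A was 7.73% for UAAA and 5.58% for UAAG. An order of the 2 signals therefore cannot be read from the pooled values.

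In NPTN and CCDC59 the density after the stop codon under G418 was above that of the CDS itself. NPTN, which encodes the cell adhesion protein neuroplastin, had no readthrough read untreated and 50 under G418, an RRTS of 180.3% (133.8 to 238) over a region of 30 nt. CCDC59 had 13.8%, 0% and 106%. SRSF8, a serine/arginine-rich splicing factor, had 5.28%, 0% and 93.8%. These values rest on 20 to 50 readthrough reads each in G418 A and on at most 5 in an untreated library. TRA2B, a regulator of splicing, had 0%, 0% and 89.9%, and STX17, the SNARE of autophagosome fusion, had 0%, 3.31% and 84.9%. KNOP1, a nucleolar protein, had 0%, 0% and 78.6%. ARF4, a small GTPase of the Golgi, had 0 reads in both untreated libraries and 67.8% in G418 A, and DDX52, a DEAD-box helicase, 0 reads in both and 67.3%. The 8 were chosen by their G418 value, so its place above the untreated ones is no result. None of the 3 that were deep enough to be tested (CCDC59, ARF4 and DDX52) passed the test, with adjusted p = 0.29 for each (edgeR).

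At the other end stood deep transcripts with almost no reads after the stop codon. RPL31, a protein of the large ribosomal subunit, had 0, 1 and 0 readthrough reads where 2243 were expected in G418 A, so RRTS there was at most 0.134% by the limit that a count of 0 allows. MGST3, a microsomal glutathione transferase, had 0 reads in all 3 libraries, with a limit of 0.651% in G418 A. SRSF1, a founding member of its splicing factor family, had 1 read in each library and 0.303% in G418 A. The MANE Select transcript of these genes, the single transcript chosen by annotators to represent a gene, ends at another stop codon, as does that of TARDBP, which encodes the RNA-binding protein TDP-43 and had 1.69%, 1.16% and 0.666%. In TARDBP the value under G418 lay below both untreated values, on 2 reads against 4 and 4. BCAP31, a chaperone of the endoplasmic reticulum (ER), kept its MANE Select stop codon and had 0%, 0% and 0.375% (0.122 to 0.875), on 1333 expected reads. DEGS1, the desaturase that completes ceramide synthesis, had 0%, 0.291% and 1.23%. RPL23A, of the large ribosomal subunit, had 0.08965%, 0% and 1.37% (1.0 to 1.83), and SNU13, a protein of the spliceosome and of box C/D particles, 1.08%, 1.08% and 2.03%.

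**Figure D3:**
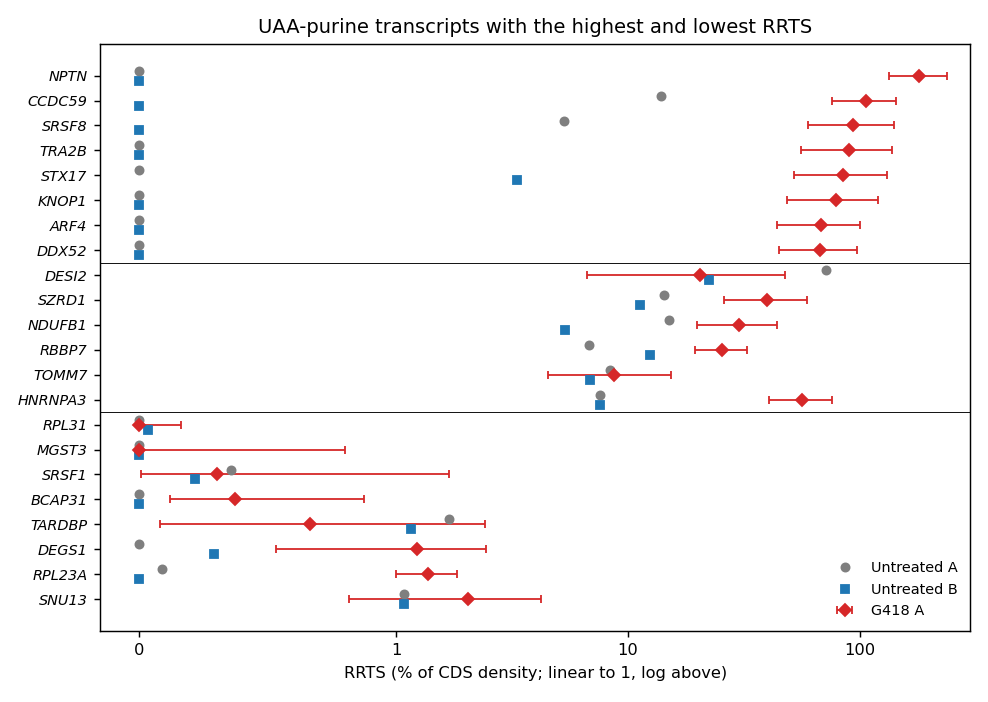
RRTS in percent of CDS density (linear to 1, log above) in each library, for the 8 highest under G418 (top), the 6 highest untreated (middle) and the 8 lowest under G418 (bottom). Bars on G418 A are exact Poisson 95% intervals. The top 8 range from 67.3% to 180.3% in G418 A, the bottom 8 from 0% to 2.03%.

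Where RRTS was already measurable without the drug, it was higher in G418 A in some transcripts and not in others. DESI2, of the deSUMOylating peptidase family, had 71.1%, 22.3% and 20.4%, on 8, 5 and 5 reads, so the treated library lay below both untreated ones. TOMM7, a small subunit of the mitochondrial import pore, had 8.35%, 6.88% and 8.73%. The MANE Select transcript of TOMM7 ends elsewhere. SZRD1 had 14.2%, 11.2% and 39.9%. NDUFB1, a subunit of respiratory complex I, had 14.9%, 5.33% and 30.2%. RBBP7, a histone-binding protein of chromatin complexes, had 6.79%, 12.4% and 25.4%, and HNRNPA3, an RNA-binding protein of nuclear ribonucleoprotein particles, had 7.54%, 7.53% and 56.1%. For SZRD1, NDUFB1, RBBP7 and HNRNPA3 the G418 value lay above both untreated values. Of the 5 that were deep enough to be tested, none passed, with HNRNPA3 at adjusted p = 0.17 (edgeR).

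By the count test (edgeR's quasi-likelihood test, Benjamini-Hochberg over 1992 transcripts), readthrough rose in 16 of the 397 UAA-purine transcripts tested (4.03%), against 7.98% of all tested. The log-scale fit (limma) called 172 of 397, against 46.7% of all, but 142 of these had 0 reads in both untreated libraries and so no measured spread, and nothing is drawn from it. The transcripts named in the rest of this paragraph were chosen after their values were seen, as passing the count test. ACTG1, which encodes cytoplasmic γ-actin, had no readthrough read untreated and 181 in G418 A, 59.4% (51.0 to 68.7) of its CDS density over 21 nt (adjusted p = 7.00e-06). TMSB10, thymosin β10, a peptide that binds actin monomers, had 1.23%, 1.88% and 33.9% (log2 4.42, adjusted p = 2.11e-08). RPS16, of the small ribosomal subunit, had 1.43%, 0.8765% and 19.7% (adjusted p = 0.0018). HIST2H3A had 0.0654%, 0.0916% and 3.02% and HIST2H3C 0.06565%, 0.111% and 3.13%, and since they are near-identical their reads cannot be assigned to one or the other. Their RRTS is taken over annotated regions of 588 nt, while the study describes histone mRNAs as ending in a hairpin, without polyadenylation. Whether these mRNAs span the whole region was not tested. NDUFA1, another complex I subunit, had 2.45%, 1.99% and 36.3%. SRSF2, a splicing factor, had 6.93%, 1.85% and 39.9%, HNRNPD, which binds AU-rich mRNA elements, 3.19%, 2.51% and 46.4%, and UQCRH, a subunit of complex III, 2.29%, 0.661% and 18.9%. The others were RPL22, RPL39, RPL19 and RPL41 of the large ribosomal subunit, the tubulin TUBB, the initiation factor EIF1AX and the protein repair enzyme PCMT1, with 2.77% (RPL41) to 18.6% (RPL39) in G418 A. They are deep transcripts with 57 to 181 readthrough reads in G418 A, and none of the 8 with the highest RRTS is among them.

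Of the 26 positions compared around the stop signal, the base just before the stop codon went with the widest spread of RRTS in G418 A. This position was singled out after its values were seen. The 274 UAA-purine transcripts with U there had a pooled RRTS of 1.69%, 1.78% and 17.5%, and those with A (260), C (283) and G (188) had 10.4%, 9.52% and 6.60% in G418 A. The medians in G418 A were 14.3% with U, 6.49% with A, 5.42% with C and 5.18% with G. The ratio of U to the other bases was 1.33, 1.55 and 1.93, above 1 in 3 of 3 libraries. With every transcript weighted equally it was 0.606, 1.27 and 1.66, below 1 in Untreated A. Within UAAA, U stood at 17.1% and the other bases at 8.20% to 9.34%, and within UAAG at 18.1% against 3.41% to 13.3%. In G418 A the same ratio was 1.94 in UAA-pyrimidine, 1.33 in UAG and 1.48 in UGA transcripts, so it was not limited to the purine class. U before the stop codon was found in 27.3% of the UAA-purine transcripts and in 17.1% of all others. The next widest spread of pooled values, 2.15 times at the twelfth base from the start of the stop codon, compares with 2.65 times here. For the base that follows the signal, A had 14.1%, U 12.5%, G 8.89% and C 8.78% in G418 A.

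Features that the rule did not use are given as descriptions. The median GC content of the 12 nt after the stop codon, the base of the rule included, was 41.7%, against 50.0% in all others, and that of the 15 nt before it was 46.7% against 53.3%. The region to the 3′TC had a median of 57 nt (18 to 669) against 66 nt, and the 3′TC was UAA in 40.0%, UGA in 41.5% and UAG in 18.5%. For the others these shares were 32.5%, 45.8% and 21.7%. Pooled RRTS in G418 A was 11.7%, 11.5% and 9.09% for regions closed by UAA, UGA and UAG. In 960 of 1005 matched transcripts (95.5%) the stop codon lay in the last exon, against 96.0% of all others. In 19 (1.89%) the readthrough region overlapped an annotated CDS, against 3.12% of all others.

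Shorter regions had higher pooled values. The 3′TC codon makes up more of a short region, and its part in these values was not tested. For regions of 18 to 29 nt pooled RRTS was 2.17%, 2.01% and 22.99%, for 30 to 59 nt 1.95%, 1.81% and 15.7%, for 60 nt to under 120 nt 1.55%, 1.35% and 11.3%, and for 120 nt or more 0.501%, 0.512% and 5.81%. The longest class holds HIST2H3A and HIST2H3C, with annotated regions of 588 nt. Together they held 13.97%, 19.5% and 13.98% of the readthrough reads expected over the 1032 transcripts. The medians in G418 A did not follow the order of the pooled values, being 0%, 6.27%, 7.99% and 6.80%. The UAA-pyrimidine class fell in the same way in G418 A, from 33.8% to 9.55%. Depth moved with length, because longer regions are expected to hold more reads, and its part in the result was not tested.

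For 61 of the matched UAA-purine transcripts the MANE Select transcript of the gene ends at another stop codon. Their pooled RRTS was 0.351%, 0.410% and 4.62%, against 1.49%, 1.39% and 11.7% in the 943 that share its stop codon, a ratio below 1 in 3 of 3 libraries. The median in G418 A was 0% in the 61 and 7.62% in the 943. The 61 make up 6.07% of the matched transcripts, against 6.94% in all others. Whether the stop codon in the tables is the one these cells use was not tested.

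**Figure D4:**
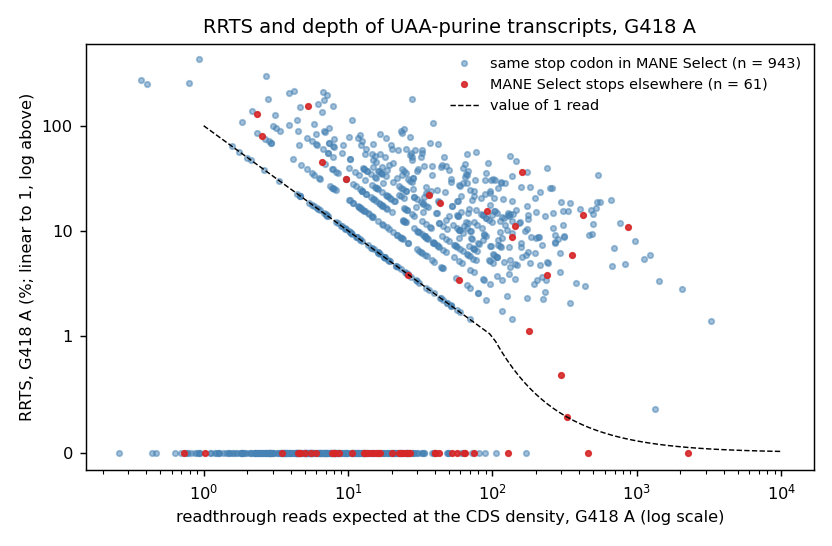
RRTS in G418 A (percent, linear to 1, log above) against the readthrough reads expected at CDS density (log scale), 1 point per UAA-purine transcript matched to a MANE Select gene. The dashed line marks the value of 1 read. Transcripts whose MANE Select stop codon lies elsewhere (61, red) include 4 of the 8 lowest deep transcripts.

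The tables also count reads past the 3′TC, over all of the 3′UTR that follows it and thus past later stop codons too, so they do not give the share of ribosomes that stop at the 3′TC itself. Over the 1000 transcripts with at least 30 nt of 3′UTR after the 3′TC, the density after it was 0.143%, 0.125% and 0.451% of the CDS density, from 1170, 1603 and 4599 reads. The G418 value was 3.37 times the untreated mean of 0.134% ± 0.0123 (SD, n = 2), and the density after the 3′TC came to 0.132, 0.126 and 0.0453 of that before it. For UAA-pyrimidine transcripts the fold was 4.32 and these ratios were 0.112, 0.121 and 0.0335. The region before it includes the 3′TC codon. Reads in the first 6 nt after the stop codon fall in the count after the 3′TC. In 242 transcripts whose 3′UTR lacks a stop codon in frame, where nothing lies after it, such reads were 131 of 5528 in G418 A. That share need not hold for the UAA-purine transcripts, where such reads could not be separated. The 4 most covered past the 3′TC in G418 A were ACTG1 with 11, 2 and 179 reads, HNRNPA3 with 6, 5 and 94, RPL39 with 10, 4 and 77, and YWHAE, a 14-3-3 protein, with 0, 2 and 74. These are reads not scaled to depth, of transcripts chosen by their G418 count. Part of them may lie in the first 6 nt, before the 3′TC, above all where reads just after the stop codon are dense, as in ACTG1. The MANE Select transcript of YWHAE ends elsewhere.

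Of 50 cytosolic ribosomal protein transcripts of the set, 24 (48.0%) end in UAA and a purine, where 18.98% of the set does. Their median RRTS was 0.567%, 0.410% and 8.23%, beside 0%, 0% and 8.92% for the 397 transcripts with at least 30 expected reads, to which all 24 belong. Their pooled RRTS in G418 A was 6.21%, beside 9.15% for the same 397, and single values ranged from 0% (RPL31) to 32.4%. Readthrough was above both untreated libraries in 21 of 24, near the 84.9% of all deep UAA-purine transcripts, and passed the count test in 5 of 24 (RPL22, RPL39, RPS16, RPL19 and RPL41). The 24 were deeper, with a median of 249.8 expected reads in G418 A against 76.3 for the 397. The part of depth in the number that passed was not tested. RPL23A, RPL31 and RPL41 had the most expected reads among the 24 and had 1.37%, 0% and 2.77% in G418 A. The 13 mitochondrial ribosomal proteins had a median of 10.8% in G418 A, with MRPL52 at 0% on 170 expected reads, MRPL50 at 14.9% and MRPL38 at 5.23%, and none of the 7 tested passed the edgeR test.

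Among 12 translation factors the median in G418 A was 13.1% and 1 of 9 tested rose, EIF1AX, from 2.43% and 2.65% to 18.5%. EIF3D and EIF3G, subunits of initiation factor 3, had 11.9% and 12.3% in G418 A. Of the 12 termination, recycling and rescue factors of the set, 3 end in this signal. They are GSPT2 (a form of eRF3), UPF1 (the helicase of nonsense-mediated decay) and MTRF1L (a mitochondrial release factor). These had 1, 4 and 0 readthrough reads in G418 A and 0 in both untreated libraries. The 6 histones, HIST2H3A and HIST2H3C among them although their reads cannot be told apart, were above both untreated libraries in 6 of 6 (84.9% of the deep UAA-purine transcripts were), with a median of 5.45% in G418 A, and HIST1H2BC had 0.592%, 0% and 7.76%. Of the 3 cytosolic chaperones, DNAJA2 had 12.2%, PTGES3 10.2% and PFDN4 20.4% in G418 A.

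In the ER, 5 chaperones and foldases had a median of 6.18% in G418 A, with the chaperone HSP90B1 at 4.63%, the disulfide isomerase PDIA3 at 14.5% and ERP44, which retains proteins in the early secretory pathway, at 6.18%. None of the 4 tested passed. The 8 proteasome transcripts had a median of 18.8% in G418 A, with PSMD10 at 0%, 0% and 17.4%, PSMA1 at 0%, 2.25% and 28.5% and PSMD6 at 8.17%, 6.65% and 20.2%. All 16 transcripts of oxidative phosphorylation were above both untreated libraries, beside 84.9% of deep UAA-purine and 91.7% of all deep transcripts, with a median of 13.5% in G418 A, and 2 passed the test, UQCRH and NDUFA1. ATP5F1A, a subunit of ATP synthase, had 1.39%, 0.997% and 9.34% and COX6A1, of cytochrome c oxidase, 1.13%, 2.08% and 9.17%. Of 14 splicing factors 13 were above both, near these shares, with a median of 14.3%, from 0.303% (SRSF1) to 93.8% (SRSF8), and SF3B6, of the U2 particle, had 0%, 0% and 4.08%.

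The 4 aminoacyl-tRNA synthetases had a median of 31.5% in G418 A, on few reads. DARS had 0, 0 and 16 readthrough reads, MARS 0, 0 and 6, and LARS 1, 17 and 9, so that LARS was highest in Untreated B. The 8 cytoskeletal transcripts had a median of 16.9% and 3 of 5 tested rose (ACTG1, TMSB10 and TUBB). Of the 4 transcripts of DNA replication, CDC6, which loads the replicative helicase, and POLA1, of the primase complex, had no readthrough read in any library, and POLD3, of polymerase δ, had 2 in G418 A. These list values stand beside 16 of 397 for all UAA-purine transcripts tested and carry no test of their own.

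**Figure D5:**
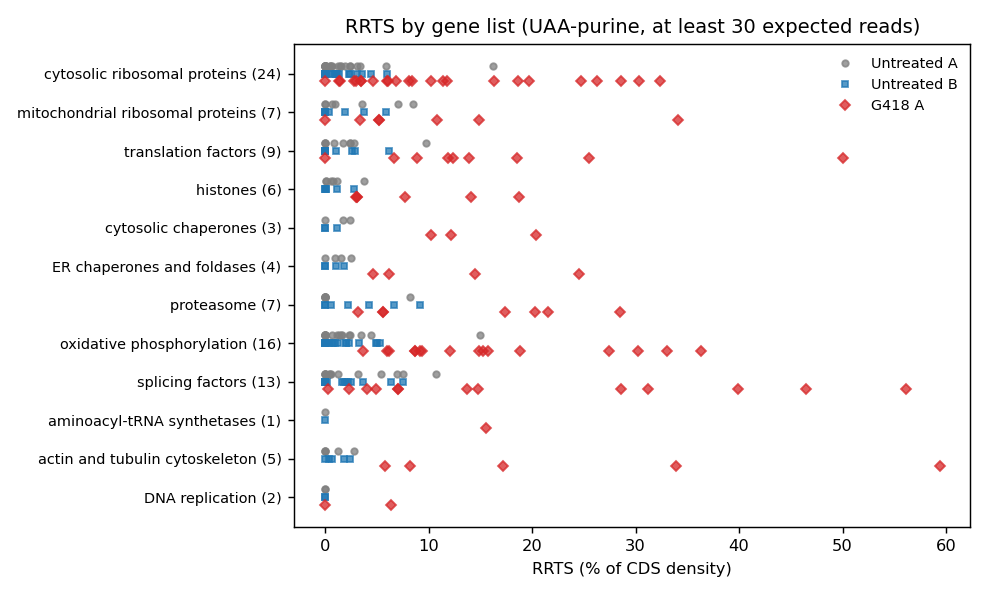
RRTS in percent of CDS density for each UAA-purine transcript of the gene lists with at least 30 expected reads (number in brackets), 1 point per transcript and library. The G418 points spread from 0% to 59.4%, and those of single lists overlap widely.

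Changes in ribosome occupancy of the CDS are relative, since scaling to depth (TMM) sets the median over all transcripts near 0. The median log2 change in G418 A was −0.03 among the 1032 transcripts and 0.00 over all 5680 tested, and 90% of the 1032 lay between −0.48 and 0.52. By edgeR 12 of 1032 rose (1.16%), against 1.90% of all, and 6 fell (0.581%), against 0.722%. DESeq2 called 2 (0.194%, against 0.176% of all) and 4 (0.388%, against 0.282%). A higher count can reflect more mRNA or more ribosomes per mRNA, and these cannot be told apart without mRNA counts.

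The 5 largest rises were in FBXO25, an F-box protein, MANSC1, a membrane protein, WDR5, a scaffold of histone H3 methyltransferase complexes, ERO1A, the oxidase that drives disulfide formation in the ER, and PRKRA, an activator of the kinase PKR. ERO1A had 118 and 85.6 RPM in the untreated libraries and 199.97 in G418 A (log2 0.91, adjusted p = 2.9e-04, edgeR). WDR5 had 44.6, 47.6 and 96.3 RPM (log2 0.99, adjusted p = 0.0010, edgeR). FBXO25, at 13.7, 11.2 and 27.99 RPM, MANSC1, at 15.5, 13.6 and 32.7, and PRKRA, at 28.2, 24.9 and 51.1, were less abundant and passed with log2 changes of 1.12, 1.11 and 0.88. The ER chaperone HSP90B1 rose too, from 1518 and 1391 to 2536 RPM. HSP90B1, not among the 5 largest rises, is named as a member of the ER list.

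The 5 largest falls were in NDUFA1, TMSB10, NNT, the mitochondrial transhydrogenase, UQCRHL, a near-copy of UQCRH whose reads may be shared with it, and AMOT, a regulator of the Hippo pathway. NDUFA1 had 186 and 212 RPM in the untreated libraries and 80.1 in G418 A (log2 −1.38, adjusted p = 2.45e-08, edgeR), and TMSB10 147, 155 and 78.6 (log2 −1.02, adjusted p = 1.9e-04, edgeR). In both, the CDS fell while readthrough reads rose, to 63 from 8 and 12 in NDUFA1 and to 181 from 10 and 26 in TMSB10, and RRTS divides one by the other. NNT had 102, 129 and 69.15 RPM, UQCRHL 89.97, 73.3 and 48.6, and AMOT 58.2, 116 and 55.4, where the untreated libraries differed from each other more than Untreated A did from G418 A. The sixth fall was in the glycolytic enzyme ENO1, at 3514, 3385 and 2385 RPM (log2 −0.60, adjusted p = 0.0498, edgeR), which is also among the 6 with the highest CDS density.

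Those 6 were RPL41, ACTG1, ENO1, RPS6, MIF and RPS16. Their RRTS in G418 A ran from 2.77% in RPL41 and 3.31% in ENO1 through 4.86% in the cytokine MIF and 8.40% in RPS6 to 19.7% in RPS16 and 59.4% in ACTG1. Each was above both of its untreated values, which were at most 2.44%. At the count minimum, KLHL18 and METTL15 lay just inside, with means of 128.3 and 129 CDS reads, and NKIRAS1 and HACD1 just outside, with 126.7 and 127.3. KLHL18 had 0, 0 and 2 readthrough reads, METTL15 and NKIRAS1 none, and HACD1 2, 4 and 4, which shows how little a transcript of that depth can tell.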

How the data were processed

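Libraries were grouped by their treatment label. Per the study's methods, reads sharing a molecular identifier were collapsed, trimmed, cleared of noncoding RNA and aligned by STAR to hg38 (GENCODE version 30), with 1 primary alignment kept per read. Each fragment of 28 to 35 nt was placed by its A site on 1 transcript per gene. Base calling with CASAVA 1.8 is named in the submitters' processing notes. The authors deposited whole-number counts, RPM values, RPKM densities (CDS density here) and ratios (RRTS). RPM values were whole multiples of 1 read (within 0.01 of a read) for 100% of nonzero values, so the reads were recovered. In Untreated A the CDS counts run 1 short of the recovered reads in 9080 of 9099 transcripts. Lengths in nt and numbers of in-frame stop codons came from the same tables.

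The members, the gene lists and the rule for named genes were chosen with earlier results of these data known. By that rule the text names the 8 highest and 8 lowest RRTS in G418 A, the 6 highest untreated, the 6 densest coding sequences, the 5 largest rises and falls of CDS occupancy, up to 3 per gene list, 2 each side of the count minimum and the 4 most covered past the 3′TC. Genes named for other reasons are marked in the text.

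RRTS was to be tested by limma 3.58.1 on log2(RRTS + 0.01) among transcripts with at least 30 expected readthrough reads. That fit did not recover the changes set in simulated data. Of its 172 calls among the members, 142 had 0 readthrough reads in both untreated libraries, where the measured spread was 0. Other forms of its variance moderation were tried on the simulated data and also failed, either by missing the changes or by calling unchanged transcripts. Its calls therefore support nothing here, and the readthrough calls given are those of edgeR 4.0.16 (quasi-likelihood test on recovered reads, expected reads as offset), which had been listed as an alternative. On the same simulated data edgeR recovered few of the smaller changes and only part of the larger ones, so a transcript that did not pass may still have changed. CDS counts were tested with edgeR (TMM) on 5680 transcripts, with DESeq2 1.42.0 as an alternative. Adjusted p-values are Benjamini-Hochberg over all transcripts tested, with a threshold of 0.05. With 2 untreated libraries and 1 G418 library, the fits assume that the G418 library varies like the untreated ones. The study describes its replicate libraries as biological replicates. Intervals are 95% exact Poisson (reads) or Wilson (shares) and cover counting error only. The largest RRTS that 0 reads allow was set at 3 reads.

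Stop contexts were matched to GENCODE version 44 on hg38 by transcript, requiring the same nucleotides from the stop codon through the base after it and the same region length (1005 of 1032, of which 790 had the same transcript version). The sequence of 1 stop context is not reported here. MANE Select marks in that annotation gave the reference transcript of each gene. Scripts used Python 3.11.15, pandas, numpy and scipy.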

Additional observations from a re-analysis of the deposited data

How the results depend on the processing

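Of 77 alternatives tried, 51 were counted as unchanged. For ratios between classes, and for the fold set against that of UAA-pyrimidine, this asked only that the direction was kept. Other values had to stay within their spread, and counts within 1.5 times. The mean log2 ratio of UAAG to UAAA thus counted as unchanged at −0.051 without HIST2H3A and HIST2H3C, against −0.54 with them. Settings by MANE Select, by the histone pair and by the base before the stop codon were chosen after the data were seen. The pooled fold of G418 A over untreated, 9.07, was 7.79 without the top 1% of transcripts by readthrough reads, 8.16 at MANE Select stop codons and 5.81 as the unweighted mean of RRTS. Leaving out an untreated library gave 8.57 and 9.62. Pooled RRTS in G418 A, 9.97%, was 9.24% with at least 500 CDS reads, 8.03% with regions of at least 60 nt, 10.3% without the top 1%, 11.1% without HIST2H3A and HIST2H3C, 11.7% at MANE Select stop codons and 17.8% unweighted. The mean log2 ratio to UAA-pyrimidine reversed to 0.094 without the top 1%, and that of UAAG to UAAA reversed to 0.10 unweighted. The cause was not tested in either case. Median RRTS in G418 A was 9.19% with at least 500 CDS reads and 8.92% with at least 30 expected reads. The share of transcripts with a readthrough read rose to 80.2%, 72.4% (regions of at least 60 nt) and 91.4% under these settings. The number of transcripts with higher RRTS by limma was 377 of 1032 with no minimum of expected reads (36.5%, against 46.0% of all). It was 62 of 161 with at least 100 (38.5%, against 45.1%), and edgeR gave 16 of 397 (4.03%, against 7.98%). Transcripts with higher CDS occupancy numbered 2 by DESeq2 (0.194%, against 0.176% of all). They numbered 7 with no count minimum (0.678%, against 1.06%) and 4 with at least 500 reads (0.798%, against 0.914%). Those with lower occupancy numbered 2 with at least 500 reads (0.399%, against 0.499%). The density after the 3′TC over that before it was 0.0417 without the top 1% and 0.0481 with at least 500 reads. Without an untreated library the median log2 change of readthrough was 2.56 or 2.59, against 2.55. No test remains when an untreated library is left out, since no residual degree of freedom is left. No paired analysis was possible because the groups share a single replicate letter. Depth limits single transcripts, with a median of 18.7 expected readthrough reads in G418 A.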
